A study of Rattus norvegicus with 12 samples.

Results

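The genes described here are those of the cell cycle and DNA replication families in the thoracic spinal cord of the rat. They were chosen by symbol: the Mcm helicase subunits, the Orc origin recognition proteins, the Rfc clamp loaders, cyclins of types A, B, D and E, the numbered Cdk and Cdc genes, the Cenp centromere proteins, and the Bub, Aurk, Plk, E2f and Top2a genes. On the array, 97 probes for 94 genes carried such a symbol, and 77 of the 94 genes, read by 79 probes, had a detection p-value under 0.05 on at least 2 of the 12 arrays. These 77 genes are the members, out of 9336 named genes that passed the same detection rule. The 17 genes that did not pass were Bub3, Ccnb1, Ccnb1ip1, Ccnb3, Cdc7, Cdc14b, Cdc25c, Cdc34, Cdc42bpa, Cdc42bpg, Cdc42se2, Cdk8, Cdk17, Cenpa, Cenpf, Cenpu and E2f7, and no named probe for Top2a was available. Since the symbols follow numbering, the set also holds genes that do not drive division, such as the neuronal kinase Cdk5 and the effectors of the GTPase Cdc42, and these were kept in roles of their own.

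A cell that enters division first raises D-type cyclins, which bind Cdk4 and Cdk6 and release E2F factors from the retinoblastoma proteins. Origins of replication are then licensed as the origin recognition complex and Cdc6 load the Mcm ring, DNA is copied with the help of the Rfc clamp loader, and Cdk1 with cyclins A and B carries the cell into mitosis, where Aurora, Polo-like and Bub kinases watch over the chromosomes. In the adult spinal cord neurons do not divide, whereas glial precursors, microglia, endothelial cells and invading blood cells can divide after injury.

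The study set G93A SOD1 mutant rats, a model of amyotrophic lateral sclerosis, against wild type (WT) littermates after a mild compression of the thoracic cord. All pools came from female Sprague-Dawley rats labelled as 10 weeks old, and each array held 1 pool of RNA from several animals of 1 genotype and condition. For each genotype there were injury pools at 30 min, 4 h, 24 h and 7 d, and pools from sham-operated rats at 30 min and 4 h, so that 2 pools, G93A and WT, stood for each of the 6 conditions. No sham pool was taken at 24 h or 7 d, so the 4 sham pools were the baseline there, and injury cannot be told apart from the time since surgery. The labels do not say how many animals went into a pool, the spread between pools is a spread between genotypes once their mean difference is removed, and the rat Sod1 probe (G93A minus WT -0.05 ± 0.10 on the log2 scale, SE, adjusted p = 0.976) did not separate the genotypes. Because whole cord was measured, fewer cells of a type and less RNA per cell cannot be told apart.

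Between 49.6% and 53.8% of the probes were detected on 11 of the arrays, against 41.3% on the array of the WT injury 30 min pool. That pool stood apart: its correlation with the G93A pool of the same condition was 0.941 across probes, against 0.985 to 0.994 in the other 5 conditions. All values below are log2 normalized signals, and differences were tested with limma in 1 fit over all 12 pools, with p-values adjusted over 13793 probes by the Benjamini-Hochberg method and a threshold of 0.05.

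At 24 h after injury, 27 of the 77 members rose and 5 fell relative to the sham pools. Over all probes tested, 11.6% rose and 10.5% fell at 24 h, so the share of members that rose, 35.1%, stood above the background while the share that fell did not. The median difference was 0.32 over the members and -0.03 over all probes. At 7 d, 18 members rose and 2 fell, against 11.2% of all probes that rose and 10.6% that fell, with medians of 0.17 and -0.05. Of the members that rose, 17 did so at both times, 10 passed the threshold at 24 h alone and 1, the mitotic kinase Aurka, at 7 d alone. In all 27 members that rose at 24 h, both 24 h pools lay above each of the 4 sham pools. The choice by the 24 h difference favours this, and it is given as a description.

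The detection rule could let a gene in through the late pools alone. Of the 77 members, 66 were detected on at least 2 of the 8 pools other than 24 h and 7 d. Of these 66, 18 rose and 5 fell at 24 h, and 12 rose and 2 fell at 7 d. The share of all probes that rose under this rule of 8 pools was not counted. Under a different filter, of 11413 probes detected on 6 or more of the 12 arrays, 1510 rose and 1457 fell at 24 h. At 7 d, 1449 of these probes rose and 1512 fell. That filter also counts the 24 h and 7 d pools, so it is no matched background for the 66. The members outside the 66 all rose at 24 h except Ccnd2 and Cdk20. The other 11 were Bub1, Bub1b, Ccna2, Ccnd2, Cdc6, Cdk20, Cenpi, Cenpt, Mcm3, Mcm10 and Orc1. Leaving out the G93A or the WT injury 30 min pool gave nearly the same counts. Either way that condition keeps 1 pool, which adds nothing to the estimated spread, so near-equal counts follow from the design. They cannot show whether the WT or the G93A pool of that condition widened the spread. Without the WT injury 30 min pool, 31 members rose and 7 fell at 24 h, while 18.3% of all probes rose and 19.7% fell, and 24 members rose and 10 fell at 7 d, against 17.2% and 19.7%. The shares of members that fell, 9.09% and 13%, thus lay below the background in that setting. Single pools moved the counts over all probes too: without the WT injury 24 h pool, 16 members (20.8%) and 2.91% of all probes rose at 24 h, and without the WT injury 7 d pool, 11 members (14.3%) and 3.43% of all probes rose at 7 d.

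Each of the 27 members kept a positive 24 h difference when any single pool was left out, and 15 of them also kept an adjusted p under the threshold. The 12 that lost the call without some single pool were Mcm2, Mcm5, Mcm7, Mcm10, Orc6, Rfc3, Rfc4, Rfc5, Cdk4, Cenpi, Cdc42ep5 and Cdc42se1. At 7 d, 11 of the 18 kept it, and Mcm2, Mcm7, Ccnd1, Cdk4, Aurka, Bub1b and Cdc42se1 did not. None of the 5 decreases at 24 h and neither of the 2 at 7 d kept it.

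**Figure D1:**
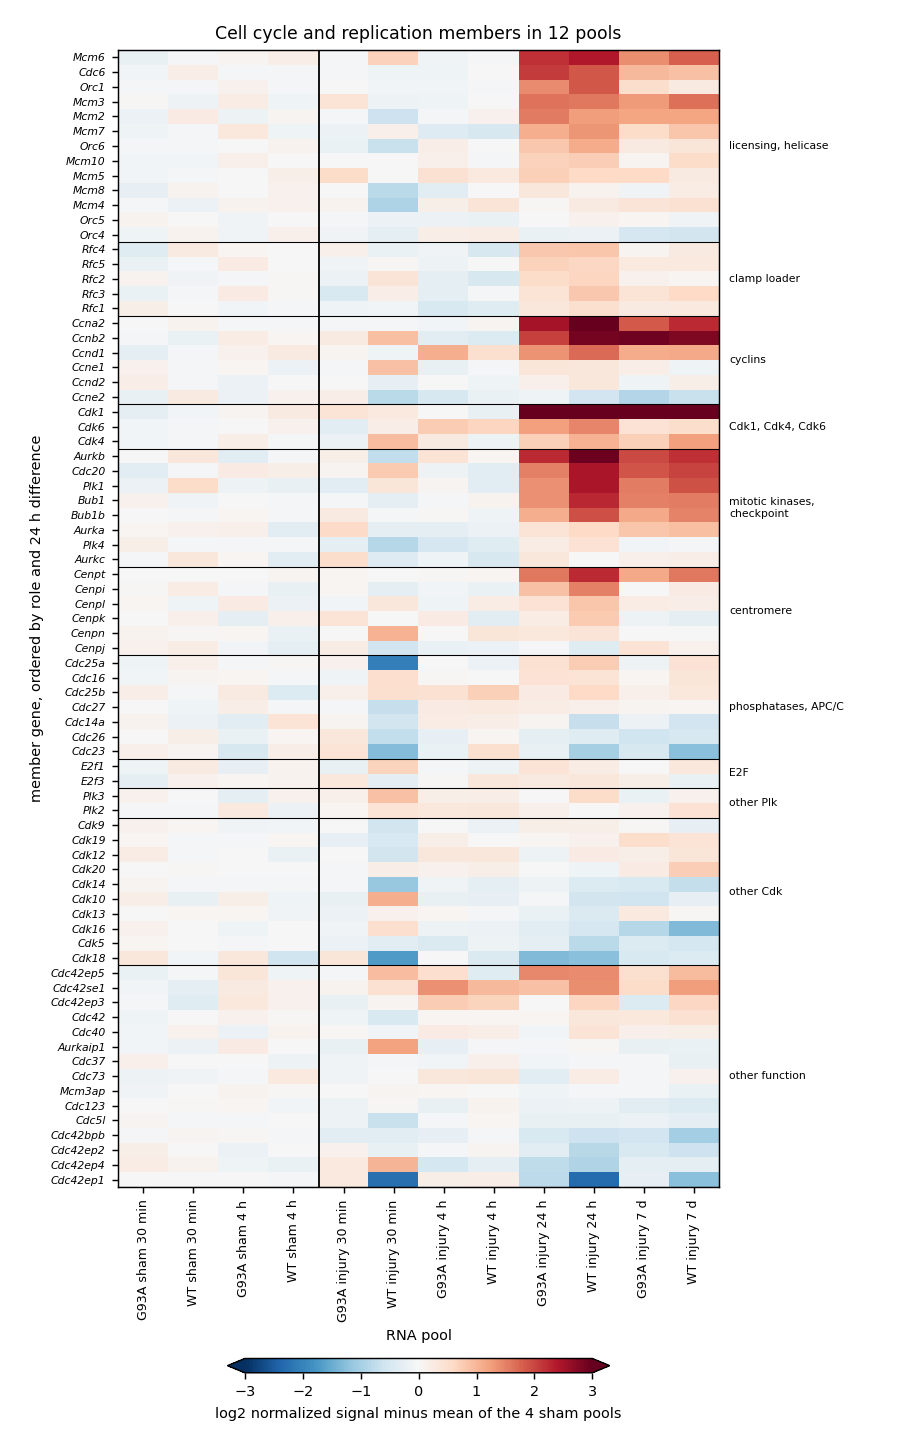
Each row is 1 of the 77 members, grouped by role, and each column is 1 RNA pool; colour gives the log2 normalized signal minus the mean of the 4 sham pools. The darkest red lies in the 24 h and 7 d pools of both genotypes, for Cdk1, Ccna2, Ccnb2, Aurkb, Cdc20, Plk1 and Mcm6, whereas Orc4, Orc5 and Ccne2 of the same roles stay pale or blue there. The early pools are mostly pale, and the WT injury 30 min column departs from its G93A partner in both directions.

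The promoters of the risen members were searched for the letters of 3 elements known from cell cycle genes, in 250 bases before and 50 after the RefSeq start on the GRCr8 assembly. Of the 77 members, 59 had an entry, among them 20 of the 27 that rose at 24 h. The E2F letters (TTTCCCGC, TTTCGCGC, TTTGCCGC or TTTGGCGC, on both strands) were present in 7 of these 20 (35.0%), in 4 of the 39 other members (10.3%) and in 2.14% of all 33469 promoters. The cell cycle homology region (CHR) letters (TTTGAA or TTCGAA, on both strands) were present in 9 of the 20 (45.0%), 7 of the 39 (17.9%) and 19.7% of all promoters. CCAAT on either strand, the letters bound by NF-Y, was present in 11 of the 20 (55.0%), 21 of the 39 (53.8%) and 37.5% of all. The risen members with E2F letters were Cdk1, Mcm2, Mcm3, Mcm5, Mcm6, Mcm7 and Rfc3. Those with E2F letters that did not pass the test at 24 h were Cdc25a, E2f3, Mcm8 and Orc5. For Cdc25a both 24 h signals (7.09 in G93A and 7.39 in WT) still lay above the sham pools (6.50 to 6.79). Among licensing genes, the risen Mcm10 and Orc6 carried none. The groups also differ in gene families, since the 39 include the other Cdk kinases and several Cdc42 effectors. Whether the letters go with the rise was not tested. The 3 promoters below are those of the members with the widest 24 h difference among licensing genes, kinases and, of those with an entry, cyclins. They are shown 5′ to 3′ on the strand of the gene with the matched letters in capitals, and overlapping E2F matches run together.
Mcm6 (chr13:42404303-42404602, minus strand): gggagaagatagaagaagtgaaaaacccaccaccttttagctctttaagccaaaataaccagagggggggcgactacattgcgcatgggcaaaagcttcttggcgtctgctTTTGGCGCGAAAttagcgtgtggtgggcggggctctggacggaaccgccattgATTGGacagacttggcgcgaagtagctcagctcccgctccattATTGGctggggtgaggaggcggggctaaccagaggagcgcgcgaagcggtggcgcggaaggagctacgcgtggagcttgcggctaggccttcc
Cdk1 (chr20:19265043-19265342, plus strand): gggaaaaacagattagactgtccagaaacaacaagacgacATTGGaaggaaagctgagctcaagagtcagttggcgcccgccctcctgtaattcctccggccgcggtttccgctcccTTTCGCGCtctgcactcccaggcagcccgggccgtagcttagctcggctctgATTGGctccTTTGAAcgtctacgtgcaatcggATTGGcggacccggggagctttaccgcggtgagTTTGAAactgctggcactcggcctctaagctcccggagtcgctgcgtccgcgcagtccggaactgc
Ccnb2 (chr8:79981609-79981908, minus strand): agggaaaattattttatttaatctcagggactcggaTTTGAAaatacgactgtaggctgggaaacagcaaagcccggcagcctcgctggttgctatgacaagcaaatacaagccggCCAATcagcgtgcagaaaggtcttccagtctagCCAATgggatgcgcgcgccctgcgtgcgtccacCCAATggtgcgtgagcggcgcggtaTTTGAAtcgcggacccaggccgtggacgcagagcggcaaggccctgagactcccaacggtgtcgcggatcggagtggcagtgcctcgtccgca

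Mcm6 carried 2 overlapping E2F matches, starting 139 and 135 bases before the start, and no CHR letters. Ccnb2 carried no E2F letters. It carried CHR letters 214 and 43 bases before the start, the second behind 3 CCAAT matches that followed each other at steps of 33 bases. Cdk1 carried all 3 kinds, with an E2F match 133 bases before the start. Its CCAAT matches lay 210, 81 and 49 bases before the start, and its CHR matches 72 and 16 bases before it. A match is a run of letters and says nothing of whether a factor was bound in these cords.

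Of the 13 licensing and helicase members, 9 rose and none fell at 24 h, against 11.6% of all probes that rose and 10.5% that fell. The 9 were the helicase subunits Mcm2, Mcm3, Mcm5, Mcm6 and Mcm7, the origin proteins Orc1 and Orc6, the loader Cdc6, and Mcm10, which helps start the fork. Mcm6, whose promoter holds the paired E2F letters, had log2 signals of 9.59 and 9.81 in the G93A and WT injury 24 h pools, and 7.18, 7.35, 7.49 and 7.59 in the sham pools (G93A 30 min, WT 30 min, G93A 4 h and WT 4 h). The 24 h pools lay well clear of every sham pool, with a difference of 2.30 ± 0.20 (SE), a 4.92-fold rise (adjusted p = 4.4e-05). At 7 d the Mcm6 signals were 8.79 and 9.19 in G93A and WT, still above all sham pools and 1.59 ± 0.20 over their mean (adjusted p = 0.000287).

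Cdc6, which with the origin complex loads the Mcm ring, was not detected on any sham array. Its signals were 6.45 and 6.22 in the G93A and WT injury 24 h pools, against 4.27, 4.55, 4.31 and 4.31 in the sham pools in the same order as above. Here G93A was the higher of the 24 h pools, and Cdc6 was at least 2.96-fold higher at 24 h (adjusted p = 3.81e-05). For probes not detected in sham, such bounds were taken against the lowest detected signal of each sham array, over probes whose detection p was in step with their signal. At 7 d Cdc6 gave 5.34 and 5.23 in G93A and WT, at least 1.43-fold above sham (adjusted p = 0.00289).

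Orc1, the largest origin recognition subunit, passed at 24 h and not at 7 d. Its signals were 5.80 and 6.24 in the G93A and WT injury 24 h pools and lay between 4.32 and 4.50 in the 4 sham pools, none of which detected it. It was at least 2.38-fold higher at 24 h (adjusted p = 0.000164). At 7 d the G93A and WT signals were 4.91 and 4.64, with 1 of the 2 pools detected, and the difference from sham did not pass the threshold (adjusted p = 0.132).

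Mcm3 had signals of 6.10 and 6.05 in the G93A and WT injury 24 h pools and 5.75 and 6.12 at 7 d, against 4.31 to 4.70 in the sham pools, where it was not detected. It was at least 2.46-fold higher at 24 h (adjusted p = 0.000522) and at least 2.24-fold higher at 7 d (adjusted p = 0.000688). At 7 d, 5 of the 13 members of this role rose, namely Cdc6, Mcm2, Mcm3, Mcm6 and Mcm7, against 11.2% of all probes. Mcm4 did not pass the test at either time, with 0.16 ± 0.27 at 24 h and 0.42 ± 0.27 at 7 d, although it sits in the same ring as the subunits that rose, and neither did Mcm8, Orc4 and Orc5. Mcm5 was read by 2 probes. The one of higher signal, not detected in sham, was at least 1.29-fold higher at 24 h (adjusted p = 0.0248), and the other did not pass (adjusted p = 0.121).

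The clamp loader sets the sliding clamp on DNA for the polymerases. Of its 5 subunits on the array, 3 rose at 24 h and none at 7 d, against 11.6% and 11.2% of all probes. Rfc4 had signals of 10.19 and 10.22 in the G93A and WT injury 24 h pools, and 9.01, 9.64, 9.45 and 9.40 in the sham pools. Both 24 h values were above the highest sham pool, with a difference of 0.83 ± 0.21, or 1.78-fold (adjusted p = 0.016). Rfc5 (0.66 ± 0.19) and Rfc3 (0.60 ± 0.19) also rose, while Rfc2 (0.60 ± 0.23, adjusted p = 0.0803) and Rfc1 (0.40 ± 0.20, adjusted p = 0.178) did not pass. At 7 d the 5 differences ran between 0.10 and 0.49. With the 4 h sham pools alone as the baseline, none of Rfc3, Rfc4 and Rfc5 passed at 24 h (adjusted p from 0.0551 to 0.193), and each of the 3 also lost the call without 1 of the 24 h pools (adjusted p of 0.349, 0.174 and 0.193).

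Among the 6 cyclins, Ccna2, Ccnb2 and Ccnd1 rose at both late times and no cyclin fell. Over all probes, 11.6% rose at 24 h and 11.2% at 7 d. Cyclin A2, which pairs with Cdk kinases in S phase and at mitotic entry, was not detected in any sham pool, where its signals lay between 4.36 and 4.52. They were 6.91 and 7.54 in the G93A and WT injury 24 h pools and 6.26 and 6.64 at 7 d. It was at least 5.47-fold higher at 24 h (adjusted p = 1.95e-05) and at least 1.68 higher on the log2 scale at 7 d (adjusted p = 5.65e-05). Cyclin B2, a partner of Cdk1 in mitosis whose promoter holds CHR and CCAAT letters without E2F letters, had signals of 7.60 and 8.42 at 24 h and 8.46 and 8.34 at 7 d in G93A and WT, against 5.49, 5.33, 5.76 and 5.59 in the sham pools. Its differences were 2.47 ± 0.28 at 24 h (5.53-fold, adjusted p = 0.000214) and 2.86 ± 0.28 at 7 d (7.24-fold, adjusted p = 4.87e-05), and it was 1 of 2 risen members, with Cdk4, whose mean was higher at 7 d than at 24 h.

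Cyclin D1, the cyclin that answers growth signals and binds Cdk4 and Cdk6, was detected on every array. Its signals were 11.13 and 11.48 in the G93A and WT injury 24 h pools and 10.89 and 10.91 at 7 d, against 9.48, 9.71, 9.90 and 10.04 in the sham pools. The differences were 1.52 ± 0.19 at 24 h (2.87-fold, adjusted p = 0.000386) and 1.12 ± 0.19 at 7 d (2.17-fold, adjusted p = 0.00195), and the 7 d call was lost without the WT injury 7 d pool (adjusted p = 0.056). At 4 h its injury signals were 10.86 and 10.27 in G93A and WT, both above all sham pools, but the difference from the 4 h sham pools, 0.60 ± 0.22, did not pass (adjusted p = 0.603). The E-type cyclins Ccne1 (0.36 ± 0.27 at 24 h) and Ccne2 (-0.36 ± 0.28 at 24 h, -0.76 ± 0.28 at 7 d) and Ccnd2 (0.26 ± 0.17 at 24 h) did not pass at either time.

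Of the kinases that these cyclins activate, Cdk1, Cdk4 and Cdk6 rose at 24 h, and Cdk1 and Cdk4 at 7 d. The shares of all probes that rose were 11.6% and 11.2%. Cdk1, the kinase of mitotic entry, had signals of 8.18 and 9.12 in the G93A and WT injury 24 h pools and 8.49 and 8.26 at 7 d, against 4.75, 4.93, 5.11 and 5.30 in the sham pools and 4.79 to 5.43 in the 4 injury pools at 30 min and 4 h. No late pool came near any early pool, and the differences from sham were 3.62 ± 0.28 at 24 h (12.3-fold, adjusted p = 1.95e-05) and 3.35 ± 0.28 at 7 d (10.2-fold, adjusted p = 2.09e-05), the widest among the members at both times.

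Cdk6, a partner of D-type cyclins, had signals of 5.99 and 6.22 in the G93A and WT injury 24 h pools, against 4.68, 4.69, 4.77 and 4.88 in the sham pools, where 1 of the 4 arrays detected it, a difference of 1.35 ± 0.20 (2.55-fold, adjusted p = 0.000964). At 7 d its signals were 5.20 and 5.29, and the difference of 0.49 ± 0.20 did not pass (adjusted p = 0.105). Cdk4, which binds the same cyclins, had signals of 9.76 and 10.10 at 24 h and 9.76 and 10.27 at 7 d in G93A and WT, against 8.97 to 9.25 in the sham pools. Its differences were 0.87 ± 0.27 at 24 h (adjusted p = 0.0364) and 0.96 ± 0.27 at 7 d (adjusted p = 0.0241). With the 4 h sham pools alone as baseline, Cdk4 no longer passed at either time (adjusted p = 0.114 at 24 h and 0.0787 at 7 d), nor did it without the WT injury pool of the same time (adjusted p = 0.285 at 24 h and 0.316 at 7 d).

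**Figure D2:**
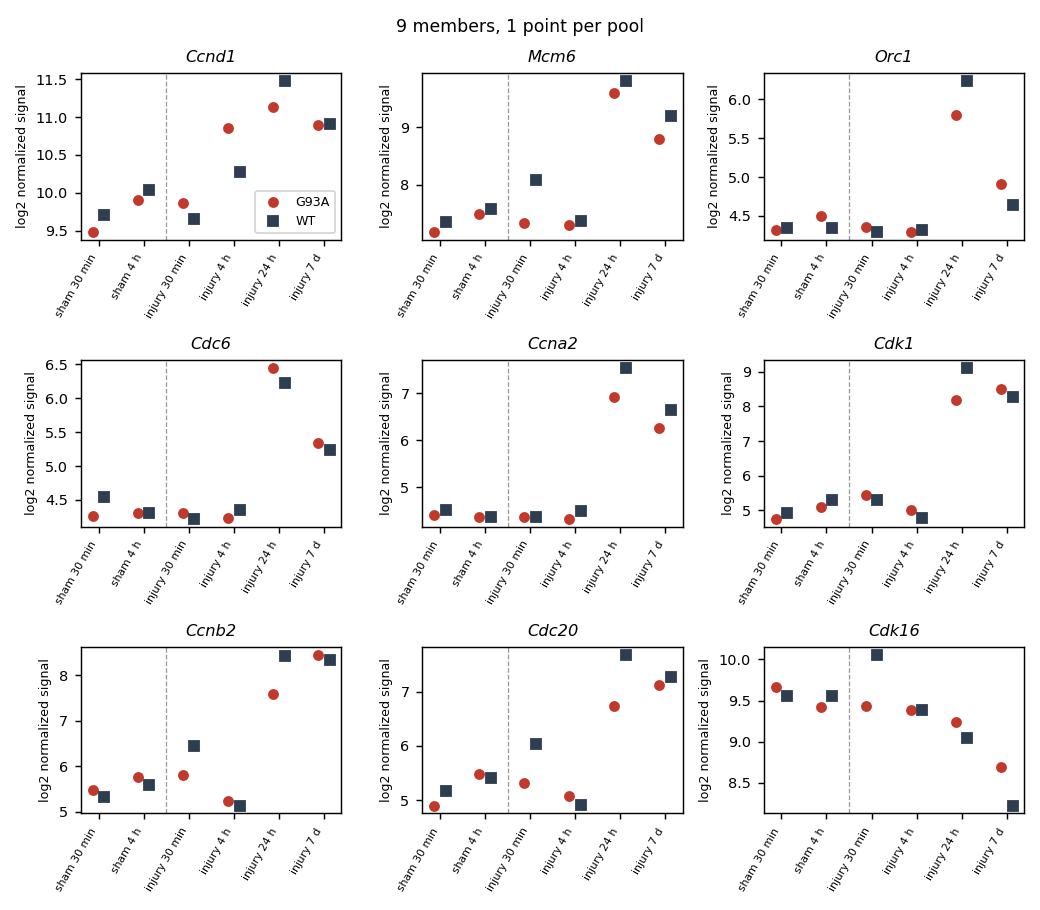
Log2 normalized signal of 9 members in every pool, with G93A as red circles and WT as dark squares, sham conditions left of the dashed line and injury times right of it. Orc1 and Cdc6 peak at 24 h, Cdk1, Ccnb2 and Cdc20 are about as high at 7 d, Ccnd1 is already high in the G93A injury 4 h pool, and Cdk16 is lowest at 7 d.

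Of 8 mitotic kinases and spindle checkpoint genes, 5 rose at 24 h and 6 at 7 d, against 11.6% and 11.2% of all probes. Aurkb, Bub1, Bub1b, Cdc20 and Plk1 rose at both times, Aurka rose at 7 d alone and lost that call without the WT injury 7 d pool (adjusted p = 0.307), and Aurkc and Plk4 did not pass. Aurora B, the kinase that corrects chromosome attachment, had signals of 7.23 and 7.94 in the G93A and WT injury 24 h pools and 6.98 and 7.18 at 7 d, against 4.97, 5.33, 4.68 and 4.96 in the sham pools, of which 3 detected it. The differences were 2.60 ± 0.31 at 24 h (6.07-fold, adjusted p = 0.000285) and 2.09 ± 0.31 at 7 d (4.27-fold, adjusted p = 0.00078).

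Cdc20, which activates the anaphase-promoting complex, had signals of 6.74 and 7.68 at 24 h and 7.12 and 7.26 at 7 d in G93A and WT, against 4.90, 5.17, 5.49 and 5.41 in the sham pools. It was 3.91-fold higher at 24 h (1.97 ± 0.27, adjusted p = 0.000695) and 3.86-fold higher at 7 d (1.95 ± 0.27, adjusted p = 0.000564). The mitotic entry kinase Plk1 had signals of 6.03 and 7.10 at 24 h and 6.20 and 6.57 at 7 d, against 4.48, 5.21, 4.51 and 4.44 in sham, where 1 of the 4 arrays detected it, with differences of 1.91 ± 0.29 (adjusted p = 0.00108) and 1.73 ± 0.29 (adjusted p = 0.00156). The checkpoint kinase Bub1 was not detected in sham and was at least 2.92-fold higher at 24 h (adjusted p = 0.000473) and at least 2.39-fold higher at 7 d (adjusted p = 0.00105), from signals of 5.88 and 6.76 at 24 h and 6.02 and 6.05 at 7 d against 4.40 to 4.65 in sham. In all 4 of these genes the WT pool was the higher at 24 h by more than the genotypes differed at 7 d.

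Centromere proteins mark the site where the kinetochore is built, and 2 of 6 rose at 24 h, against 11.6% of all probes. Cenpt, which links centromeric chromatin to the outer kinetochore, was not detected in sham, where signals lay between 4.25 and 4.35. They were 5.86 and 6.51 in the G93A and WT injury 24 h pools and 5.41 and 5.85 at 7 d. It was at least 2.66-fold higher at 24 h (adjusted p = 0.000112) and at least 1.81-fold higher at 7 d (adjusted p = 0.000587). Cenpi had signals of 5.54 and 6.17 at 24 h against 4.68, 4.87, 4.62 and 4.43 in sham, where 1 of the 4 arrays detected it (1.20 ± 0.21, adjusted p = 0.00246). The 24 h call was lost without the WT injury 24 h pool (adjusted p = 0.0838). At 7 d the Cenpi signals were 4.66 and 4.90, and the difference did not pass (adjusted p = 0.716). Cenpj, Cenpk, Cenpl and Cenpn did not pass at either time.

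Phosphatases and anaphase-promoting complex subunits did not pass the test. None of the 7 (Cdc14a, Cdc16, Cdc23, Cdc25a, Cdc25b, Cdc26 and Cdc27) passed at 24 h or 7 d, with differences between -0.61 and 0.61 at 24 h. Over all probes, 11.6% rose and 10.5% fell at 24 h, and 11.2% rose and 10.6% fell at 7 d. Cdc25a, a phosphatase that activates Cdk kinases, had signals of 7.09 and 7.39 at 24 h against 6.50 to 6.79 in sham, but its probe read 4.58 in the WT injury 30 min pool, and its SE was 0.46. The transcription factors E2f1 (0.32 ± 0.25, adjusted p = 0.401) and E2f3 (adjusted p = 0.355), the second of them not detected in sham, did not pass at 24 h, nor did Plk2 and Plk3, the other Polo-like kinases.

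Of the 10 other kinases numbered as Cdk, none rose and 2 fell at 24 h, against 11.6% of all probes that rose and 10.5% that fell, and none rose and 1 fell at 7 d, against 11.2% and 10.6%. With 10 genes, these counts are close to the background. Cdk18 had signals of 4.74 and 4.81 in the G93A and WT injury 24 h pools, against 6.39, 5.97, 6.40 and 5.47 in sham. Neither 24 h array detected it, so that it was at least 2.37-fold lower (adjusted p = 0.0303). Its signal was also 4.37 in the WT injury 30 min pool against 6.42 in the G93A pool of that condition. Cdk5, a kinase of neurons with p35 as its partner, had signals of 9.46 and 8.94 at 24 h, against 9.80, 9.76, 9.70 and 9.74 in sham (-0.55 ± 0.18, 1.46-fold lower, adjusted p = 0.0492).

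Cdk16, a kinase found at high levels in brain and testis, had signals of 8.69 and 8.22 in the G93A and WT injury 7 d pools, against 9.67, 9.55, 9.42 and 9.56 in sham, a 2.14-fold lower level (-1.10 ± 0.21, adjusted p = 0.0035). The decreases of Cdk18 and Cdk5 at 24 h and of Cdk16 at 7 d were each lost when some single pool was left out, and Cdk5 (adjusted p up to 0.128) and Cdk18 (adjusted p up to 0.103) also missed the threshold with the 4 h sham pools alone as baseline. Cdk14 (-0.58 ± 0.21 at 7 d, adjusted p = 0.0685) and the transcription kinases Cdk9, Cdk12 and Cdk13 did not pass at either time.

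Of 15 members of other function, 2 rose and 3 fell at 24 h, against 11.6% of all probes that rose and 10.5% that fell. At 7 d, 1 rose and 1 fell, against 11.2% and 10.6%. With 15 genes, these counts are close to the background. The Cdc42 effectors, which pass signals of that GTPase to the actin skeleton, made up all 5 calls at 24 h. Cdc42ep5 had signals of 7.46 and 7.44 in the G93A and WT injury 24 h pools against 5.83, 5.96, 6.40 and 5.91 in sham (2.69-fold, adjusted p = 0.0122), and Cdc42se1 rose 2.19-fold at 24 h (adjusted p = 0.00745) and 1.87-fold at 7 d (adjusted p = 0.0207). Cdc42ep1 had signals of 6.54 and 5.01 at 24 h against 7.27 to 7.34 in sham (2.91-fold lower, adjusted p = 0.0361), and read 5.06 in the WT injury 30 min pool. Cdc42ep4 (1.79-fold lower, adjusted p = 0.0239) and Cdc42ep2 (1.51-fold lower, adjusted p = 0.0352) also fell at 24 h, and Cdc42bpb fell at 7 d (1.73-fold lower, adjusted p = 0.0161, with 1 of the 2 pools detected). With the 4 h sham pools alone as baseline, Cdc42ep5 missed the threshold at 24 h (adjusted p = 0.0507), and so did all 3 effectors that fell. Without the WT injury 24 h pool none of the 5 effector calls at 24 h held (adjusted p of 0.137 for Cdc42ep5, 0.177 for Cdc42se1, 0.373 for Cdc42ep1, 0.419 for Cdc42ep2 and 0.285 for Cdc42ep4), and without the WT injury 7 d pool Cdc42se1 (adjusted p = 0.388) and Cdc42bpb (adjusted p = 0.303) missed the threshold at 7 d. Cdc42 itself was 0.20 ± 0.15 over sham at 24 h and did not pass.

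**Figure D3:**
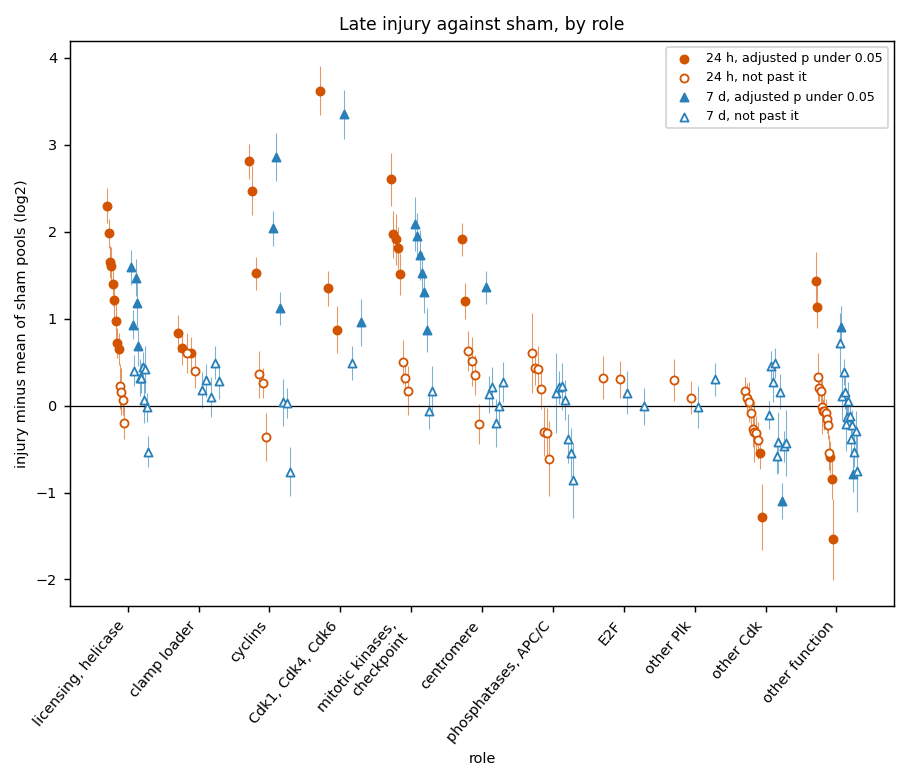
Each point is 1 member, with the injury minus sham difference (log2) at 24 h as orange circles and at 7 d as blue triangles, error bars as SE of the fit, and filled points with an adjusted p under 0.05. Filled points above 0, from 0.60 to 3.62 at 24 h, lie in the replication, cyclin, kinase, mitotic and centromere roles and among genes of other function, and the other Cdk kinases hold none above 0.

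No member passed in the first hours. At 4 h, none of the 77 members passed against the 4 h sham pools, against 0.348% of all probes that rose and 0.0363% that fell, and 3 members (Cdc42se1, Cdk6 and Ccnd1) had an unadjusted p under 0.05, all upwards. At 30 min none passed, against 0.145% of all probes that rose and 0% that fell, and 4 members (Ccnb2, Cdc5l, Cdk14 and Plk4) had an unadjusted p under 0.05. Without the G93A injury 30 min pool, when the WT pool that stood apart was the lone 30 min injury pool, 9 members rose and 14 fell at 30 min (11.7% and 18.2%), near the 15.7% of all probes that rose and 16.2% that fell in that setting. Between the sham pools, 4 h against 30 min, no member passed and none had an unadjusted p under 0.05, against 0.174% of all probes that rose.

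The injury pools at 24 h were also set against those at 4 h, a comparison without sham pools that was chosen after the values had been seen. In it 19 members rose and none fell, against 5.42% of all probes that rose and 3.23% that fell. Cdk1 was 13.5-fold higher at 24 h than at 4 h (3.75 ± 0.32, adjusted p = 0.000395), with 8.18 and 9.12 in the G93A and WT 24 h pools against 5.0 and 4.79 at 4 h. Mcm6 was 5.15-fold higher (adjusted p = 0.000601) and Cdc20 4.63-fold higher (adjusted p = 0.0027). The 19 were 7 licensing and helicase genes (Cdc6, Mcm2, Mcm3, Mcm6, Mcm7, Orc1 and Orc6), Rfc2 and Rfc4, Ccna2 and Ccnb2, Cdk1, Cenpi and Cenpt, and Aurkb, Bub1, Bub1b, Cdc20 and Plk1. Ccnd1, Cdk4 and Cdk6 were not among them. Without the G93A or the WT injury 30 min pool, 30 members rose and 3 fell, against 12.6% of all probes that rose and 11.7% that fell. The number that rose was 8 without the WT injury 4 h pool, against 0.515% of all probes, and 9 without the WT injury 24 h pool, against 0.74%.

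The change between 24 h and 7 d differed from gene to gene. The median 7 d minus 24 h difference was -0.32 over the 13 licensing and helicase genes, -0.37 over the 5 clamp loaders and -0.19 over the 8 mitotic kinases and checkpoint genes, against -0.22 over all 77 members and -0.03 over all probes. No test of the difference between these roles was made. Of the 27 members that rose at 24 h, 25 had a lower mean at 7 d, a count that the choice by 24 h values favours and that is given as a description. Among all 77 members, 3 passed the test of a fall and none of a rise, against 1.16% of all probes that fell and 2.07% that rose. These were Orc1 (-1.25 ± 0.20, adjusted p = 0.00745), Cdc6 (-1.06 ± 0.20, adjusted p = 0.0149) and Cenpi (-1.07 ± 0.24, adjusted p = 0.035).

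For Orc1 the injury 7 d signals of 4.91 and 4.64 lay below both 24 h signals of 5.80 and 6.24, and likewise for Cdc6 and Cenpi. Orc1 and Cenpi were each detected in 1 of the 2 pools at 7 d. Cdk6 (-0.86 ± 0.23, adjusted p = 0.0675), Ccna2 (-0.78 ± 0.24, adjusted p = 0.114) and Mcm6 (-0.71 ± 0.24, adjusted p = 0.149) did not pass, and Cdk1 (-0.28 ± 0.32), Plk1 (-0.18 ± 0.33) and Cdc20 (-0.02 ± 0.32) were within 1 SE of 0. Without the G93A or the WT injury 30 min pool, 8 members passed as lower and 1 as higher at 7 d, against 4.54% to 4.57% and 5.89% to 5.92% of all probes. The count of falls was 1 without the G93A injury 7 d pool (0.232% of all probes), and 0 without the WT injury 24 h pool (0.0943%) or the WT injury 7 d pool (0.16%).

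No member passed the test of genotype. Over the 6 conditions, G93A minus WT had a median of -0.01 over the members, with 0% of probes called in either direction and 3 members (Cdc42ep1, Cdk18 and Cdk14) at an unadjusted p under 0.05, against 374 of the 13793 probes. The test of whether the late response differed between G93A and WT gave 0 members as well, with 4 (Bub1b, Cdc42ep3, Cdc42se1 and Cenpt) at an unadjusted p under 0.05 and 515 over all probes. In these 4 the late difference was smaller in G93A than in WT, and the lowest adjusted p was 0.999. Without the G93A or the WT injury 30 min pool, 1 member, Cdc42ep1, passed this test, with a positive term, as did 0.711% of all probes.

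The order of the individual pools is given as a description. At 24 h, 22 of the 27 risen members had a wider difference from the sham pools of their own genotype in WT than in G93A, and the exceptions Cdc6, Mcm2, Mcm5, Rfc4 and Rfc5 were all replication genes. For Bub1 the differences were 1.31 in G93A and 2.32 in WT, and for Ccnb2 they were 1.98 in G93A and 2.96 in WT. Between 24 h and 7 d, the G93A signal was higher at 7 d in 6 members, all of mitosis: Bub1, Bub1b, Ccnb2, Cdc20, Cdk1 and Plk1. In WT it was higher at 7 d in Cdk4 and Mcm3 alone. For Cdk1 the 7 d minus 24 h change was 0.31 in G93A and -0.87 in WT, and for Ccnb2 it was 0.86 in G93A and -0.08 in WT.

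With 1 pool of each genotype per time, these orders rest on single arrays whose genes share the same RNA. The test of the genotype difference in the 7 d against 24 h change, added after the values had been seen, called no member and no probe, with 0 members and 194 probes at an unadjusted p under 0.05. For Cdk1 that difference was 1.18 ± 0.60 and for Ccnb2 0.94 ± 0.65 (SE, adjusted p = 1.0 for both).

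**Figure D4:**
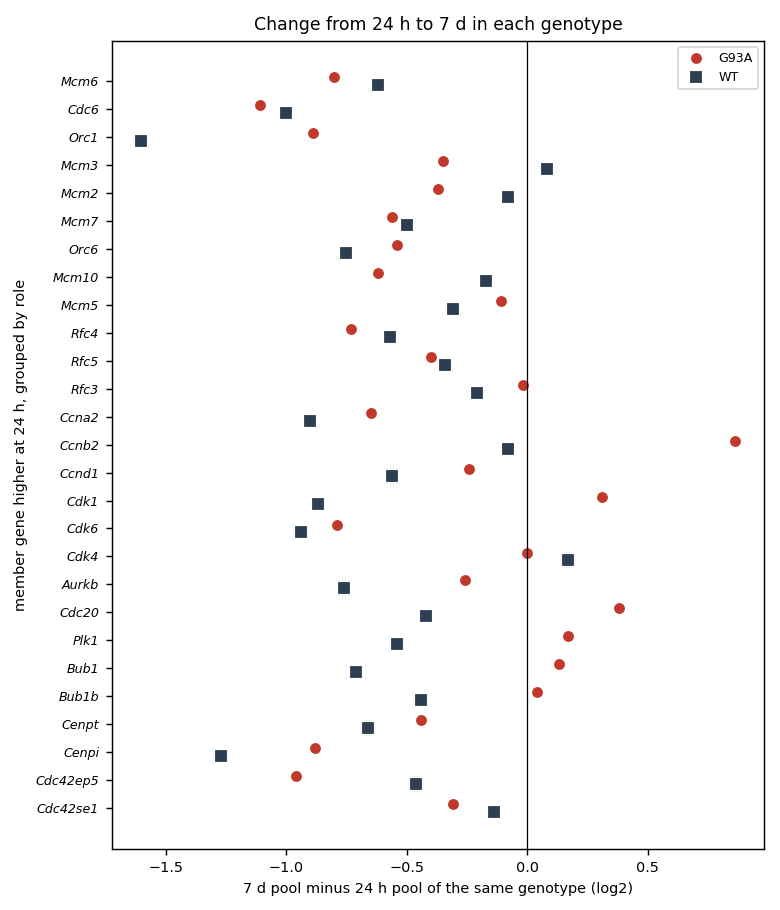
For each of the 27 members that rose at 24 h, grouped by role, the 7 d pool minus the 24 h pool of the same genotype (log2) is shown for G93A as a red circle and for WT as a dark square. Cdk1, Ccnb2, Cdc20, Plk1, Bub1 and Bub1b lie right of 0 in G93A and left of 0 in WT, while Orc1, Cdc6 and Cenpi lie left of 0 in both.

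Genes of the same pathways that are not members were listed with earlier results of these data known. Of 20 tested DNA synthesis genes, 13 rose at 24 h and 5 at 7 d, against 11.6% and 11.2% of all probes. None fell, with medians of 0.90 and 0.42. Gins1, a subunit of the replicative helicase, had signals of 7.77 and 8.02 in the G93A and WT injury 24 h pools against 5.90, 5.43, 6.16 and 5.66 in sham (4.32-fold, adjusted p = 0.000293). The ribonucleotide reductase subunit Rrm2 rose 3.42-fold at 24 h (adjusted p = 0.00287) and the polymerase subunit Pole 2.87-fold (adjusted p = 0.00294). The clamp gene Pcna did not pass (0.65, adjusted p = 0.123).

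Of 21 tested mitosis genes, 14 rose at 24 h and 13 at 7 d, against 11.6% and 11.2% of all probes. None fell, with medians of 1.41 and 0.97. Ube2c, the ubiquitin-conjugating enzyme of the anaphase-promoting complex, had signals of 7.33 and 8.34 at 24 h and 7.50 and 7.21 at 7 d in G93A and WT, against 4.89, 4.86, 5.20 and 4.61 in sham, of which 3 detected it (7.69-fold at 24 h, adjusted p = 0.00012). Cks2, a Cdk-binding protein, rose 7.36-fold and 6.46-fold at 24 h and 7 d, and the spindle midzone protein Prc1 rose 6.34-fold and 6.44-fold. The proliferation marker Mki67 did not pass at either time (0.27 and 0.24).

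Of 14 tested genes that restrain the cycle or answer DNA damage, 5 rose at 24 h and 4 at 7 d, and none fell. Over all probes 11.6% rose at 24 h and 11.2% at 7 d. Pkmyt1, which holds Cdk1 inactive, rose 2.40-fold at 24 h (adjusted p = 0.00362, with 2 of the 4 sham arrays detecting it), the stress gene Gadd45a 2.21-fold (adjusted p = 0.00243) and Ccng1, a target of p53, 2.20-fold (adjusted p = 0.0245). The Cdk inhibitors Cdkn1a (0.43) and Cdkn1b (-0.16) did not pass at 24 h.

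Markers of several cell types also changed at 24 h or 7 d. Over all probes 11.6% rose and 10.5% fell at 24 h, and 11.2% rose and 10.6% fell at 7 d. Of 8 microglia and macrophage markers tested, 5 rose at 24 h and 6 at 7 d, and their summed normalized signal, on the linear scale, was 4654 and 4635 in the G93A and WT injury 24 h pools and 12223 and 14561 at 7 d, against 2105 to 2540 in sham. This sum was thus highest at 7 d. Of 6 pericyte and fibroblast markers none rose at 24 h and 5 rose at 7 d (sums of 14258 and 26684 at 7 d against 5278 to 7069 in sham), and 2 of 5 lymphocyte markers, Cd3g and Lck, rose at both times (sums of 183 and 265 at 24 h against 117 to 182).

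None of the 5 bone marrow progenitor markers tested (Camp, Cd34, Elane, Mpo and Prtn3) passed at 24 h or 7 d, their sum was 140 and 164 at 24 h and 140 and 149 at 7 d against 122 to 145 in sham, and Kit was below the detection rule. Of 7 neutrophil markers, 3 (Il1r2, Mmp9 and S100a8) rose at 24 h, but none passed between the 4 h and 24 h injury pools. Their sum was 2212 and 861 in the G93A and WT injury 4 h pools and 1600 and 2091 at 24 h. In sham it was 208 and 320 at 30 min and 958 and 455 at 4 h, in G93A and WT. Of 5 oligodendrocyte precursor markers none rose at 24 h, Olig2 fell then, and Cspg4 rose and Olig1 fell at 7 d. Neuron markers fell, 4 of 8 at 24 h and 8 of 8 at 7 d (sums of 18882 and 9127 at 7 d against 36441 to 38917 in sham), and all 6 oligodendrocyte markers fell at 24 h. Of 4 endothelial markers Vwf rose, 2.16-fold at 24 h and 2.30-fold at 7 d (sums of 5393 and 5218 at 24 h and 6551 and 6432 at 7 d in G93A and WT, against 4033 to 5071 in sham). Ngfr, the 1 Schwann cell marker tested, rose 2.45-fold at 24 h and 6.61-fold at 7 d. Of 6 erythroid markers, Alas2 and Ahsp rose at 24 h, with the list's sum at 37116 and 28489 against 39826 to 42831 in sham. Of 5 astrocyte markers, Aqp4 and Gja1 fell at 24 h and Aqp4 and Slc1a2 at 7 d (sums of 13460 and 13182 at 24 h against 19446 to 22941 in sham). Which cells carried the members' transcripts, and the part of these cell types in their rise, was not tested.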

How the data were processed

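RNA pools of rat thoracic cord were read on 12 Illumina arrays with 22226 probes. The deposited intensity values are background-subtracted bead signals from BeadStudio 3.2.6, per the submitters' processing notes, with a detection p-value for each probe and array, per the file headers. The probe identifiers in the deposited file were out of step with the values. Sorting the identifiers as text, with the values in file order, brought the mean share of arrays that detected a probe to 8.24% for 184 olfactory and vomeronasal receptor probes, from 48.1% as deposited, and to 90.5% for 111 ribosomal and proteasome probes, from 52.8%.

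On each array 0.82% to 0.99% of the probes had a detection p out of step with their signal, none of them representing a member, and these widened the background estimate of limma's neqc. A background mean and SD from the signals at detection p of 0.16, 0.5 and 0.84 were therefore used for normexp, followed by an offset of 16, quantile normalization and log2. This correction was made after the files had been seen, and neqc's own estimate is among the alternatives. The same probes were left out of the detection floor behind each "at least" fold, also after the data had been seen. limma 3.58.1 in R 4.3.3 fitted 6 conditions plus genotype with a trended eBayes over 13793 probes, leaving 5 residual degrees of freedom (4 with a genotype interaction). The probe of highest mean signal stood for a gene. P-values measure the spread between pools of different genotype, and the number of pools limits the precision. The fit was tested on simulated data. Members, roles and lists were chosen with earlier results of these data known. Named were up to 4 members per role with the widest 24 h difference past the threshold, up to 6 decreases per late time, every member past it elsewhere, Cdk1, Mcm6, Ccnd1 and Cdk5, and up to 3 genes per pathway list. Other members are named to account for the set.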

Additional observations from a re-analysis of the deposited data

How the results depend on the processing

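The count of members that rose at 24 h (27) stayed between 18 and 27, and that at 7 d (18) between 12 and 18, under neqc's own background estimate, no background correction, the series' processed values, no detection filter, a filter of 6 or more arrays, no genotype term, eBayes without a trend, the 4 h sham pools as baseline and every probe of a gene required to pass. The filter of 6 arrays tests fewer genes by construction. The counts over all probes moved too. At 24 h, 1602 of 13793 probes rose in the fit used above, 1681 with no genotype term and 987 with the 4 h sham baseline. With no detection filter, 1444 of 22226 rose. At 7 d these counts were 1547, 1628, 1142 and 1436. The probes that fell at 24 h numbered 1454 in the fit used above and 733 with the 4 h sham baseline. The small counts moved more. The 5 decreases at 24 h became 2 with neqc's own estimate, 2 with no detection filter, 3 with no genotype term and 0 with the 4 h sham baseline. The 2 decreases at 7 d became 1 with no filter and 4 with the filter of 6 arrays. The 3 members that fell between 24 h and 7 d became 5 with neqc's own estimate, 1 with no background correction and 0 with the filter of 6 arrays. For these the cause was not tested. When each pool was left out in turn, counts ran from 16 to 31 (higher at 24 h), 0 to 7 (lower at 24 h), 11 to 25 (higher at 7 d), 0 to 10 (lower at 7 d), 0 to 9 (7 d against 24 h), 8 to 33 (24 h against 4 h), 0 to 23 (30 min) and 0 to 1 (genotype by late injury), and stayed at 0 for 4 h, sham time, genotype and the genotype difference in the 7 d against 24 h change. With a pool left out, its condition has 1 pool, taken to have the spread of the remaining conditions. The counts over all probes moved widely in these settings as well. For the 28 named genes at 24 h and 7 d, the alternatives other than single pools kept the direction throughout, with 405 values on the same side of the threshold, 28 no longer past it and 1 newly past it. With single pools left out, 580 values stayed on the same side, 77 no longer passed, 14 newly passed, and 1 direction reversed: Rfc4 at 7 d, not past the threshold to begin with, was -0.0025 without the G93A sham 30 min pool (adjusted p = 0.995), in a range of -0.0025 to 0.37 over single pools left out. Each condition has 1 pool per genotype, which the genotype term already pairs, so no further paired analysis was made. Signal over background limits the 12 members not detected in sham, and a fold given for any of them is a lower bound. With probes of a detection p out of step kept in the detection floor, those bounds would be 1.08 to 1.12 times as high.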
